A study of Mus musculus with 2 samples.

Results

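The 40 genes described here encode integrin chains and the intracellular proteins of focal adhesions, and each was found by its symbol in a table of 54713 rows. They fall into 6 roles, namely 12 integrin alpha chains, 7 integrin beta chains, 5 talins, kindlins and vinculin, 5 proteins of the ILK, PINCH and parvin complex, 4 adhesion kinases and Cas scaffolds, and 7 LIM adaptors, tensins and VASP. RNA was sequenced from SV40 MES13, a mouse kidney line that the labels call mesangial and that is immortalised with SV40 sequences. The Lv_AI662270 cells carried a lentivirus made to express AI662270, a long noncoding RNA, and the Lv_NC cells a control virus. The labels give the genotype as overexpression of lncRNA AI662270 in the first group and as WT in the second, and list both as untreated. Both stable lines were selected with 0.5 mg/ml puromycin and kept in 0.25 mg/ml puromycin and 10% fetal serum. The promoter of the vector, and whether each line is a clone or a pool, are not stated in the labels, and the treatment text names Sox9 as the transcript checked by qRT-PCR. Each group held 1 library, so the values describe 2 libraries, no difference has a replicate check, and no p-value was computed.

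Integrins are membrane receptors made of an alpha and a beta chain that bind matrix proteins such as laminin, collagen and fibronectin. Talins and kindlins bind the beta chain tails and switch the receptors on, and vinculin, the ILK complex, paxillin, zyxin and tensins connect them to actin. The kinases FAK, encoded by Ptk2, and Src signal from these sites through the Cas scaffold proteins. In the glomerulus, mesangial cells use integrins to hold the capillary loops, and the alpha chain encoded by Itga8 is a marker of these cells.

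The Lv_AI662270 library held 15062482 counts and the Lv_NC library 15727023. AI662270 itself had 241 counts in the Lv_AI662270 library and 0 in the Lv_NC library. The marker lists did not all match the labelled cell type. CPM are counts divided by the scaled size of the library. The 12 mesangial markers summed to 117 CPM in the Lv_AI662270 library and 84.3 CPM in the Lv_NC library, with Itga8, Thy1 and Ren1 at 0 counts in both. Markers were called by the rules defined below, under which 5.59% of all measured genes were higher and 5.72% lower. Of the 8 measured mesangial markers, too few to read against those shares, Notch3 was higher. It had 512 counts in the Lv_AI662270 library and 123 in the Lv_NC library. Gata3 and Serpine2 were lower, with 25 and 10 counts in the Lv_AI662270 library and 76 and 28 in the Lv_NC library, and Pdgfrb, Mcam, Foxd1, Tbx18 and Des passed in neither direction. Of 9 tubular epithelial markers, Umod, Aqp2 and Slc34a1 had 0 counts in both libraries, but the list summed to 683 CPM in the Lv_AI662270 library and 1388 CPM in the Lv_NC library. Krt18, Krt8, Epcam and Cdh1, which encode keratins and junction proteins of epithelia, supplied most of that sum. The endothelial list summed to 25.3 and the fibroblast list to 9.76 CPM in the Lv_AI662270 library, against 26.6 and 5.53 CPM in the Lv_NC library. Podocyte markers summed to 86.3 CPM in the Lv_AI662270 library and 157 CPM in the Lv_NC library. The macrophage and leukocyte list summed to 40.1 CPM in the Lv_AI662270 library and 48.9 CPM in the Lv_NC library, with Itgam and Adgre1 at 0 in both.

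The question was which adhesion genes differed in the line carrying AI662270. Genes that averaged 1 CPM or more over both libraries were called measured. A measured gene counted as higher or lower where the log2 ratio of CPM + 0.5 was at least 1 in size and the 95% exact counting interval of the ratio left out 1. Of 35 measured members, 1 was higher (Nedd9), 3 were lower (Itgb6, Itga7 and Itga3) and 31 passed in neither direction. Among all 13268 measured genes, 5.59% were higher and 5.72% lower, so 1 and 3 of 35 members lie near that background. Their median log2 ratio was -0.05, beside -0.02 over all measured genes. A threshold of 1.5-fold gave 7 higher and 9 lower members, against 12.9% and 14.3% of all measured genes, and one of 3-fold gave 0 and 0, against 1.86% and 1.97%. The log2 ratio was under 0.5 in size for 17 of the 35 members, or 48.6%, and for 65.9% of all measured genes. Counting intervals cover counting error only and not differences between cultures.

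**Figure D1:**
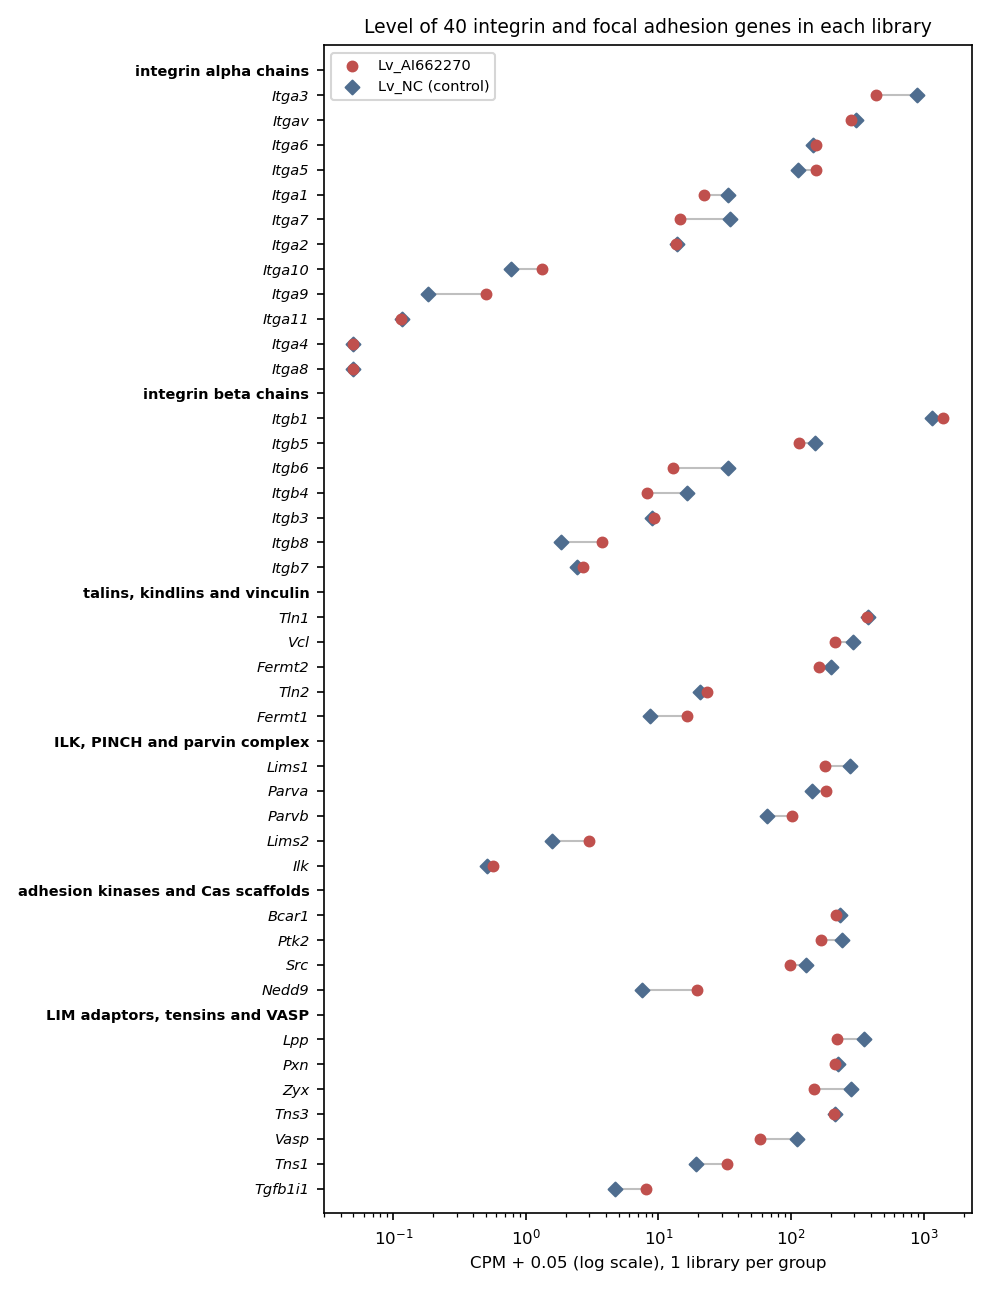
Level of each of the 40 members in CPM with 0.05 added, on a log axis, by role and in order of level within a role. Circles are the Lv_AI662270 library and diamonds the Lv_NC library, and the grey line joins them. Itgb1 is the most abundant member in both libraries, and Itga8 and Itga4 sit at 0 counts in both.

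The members were also read by abundance, beside all genes at the same level. The 20 members at a mean of at least 50 CPM had log2 ratios below 0 in 15 cases and above 0 in 5, with a median of -0.21. The 5152 genes at that level had a median of -0.09 and quartiles of -0.39 and 0.18. Of these abundant genes, 1.3% were higher and 5.2% lower. The 15 measured members under 50 CPM were above 0 in 10 cases and below 0 in 5, with a median of 0.16, beside 0.05 over all measured genes at that level. Of the 8116 measured genes under 50 CPM, 8.32% were higher and 6.05% lower. How many of all genes at either level lay below or above 0 was not counted.

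Promoter sequences are shown for 4 of the members whose levels are described below: Itgb6, Itga3 and Nedd9, which passed the size rule, and Vcl, whose promoter carries the same kind of box as Itgb6. Each stretch is the 250 bases before a RefSeq start in build GRCm38.p6, in the direction of transcription, and RefSeq lists 2 starts each for Itgb6 and Itga3, of which the first is printed for Itga3. Capitals mark letters that match, on either strand, GGGCGG (a GC box), GGAATG (a TEAD motif), TGANTCA (an AP-1 motif) or a CArG box, the motif of the actin-responsive factor SRF. Itgb6 lies at chr2:60722604-60722853 for the first start and at chr2:60673694-60673943 for the second, Itga3 at chr11:95076715-95076964 and Nedd9 at chr13:41359002-41359251, all on the minus strand. The Vcl stretch lies at chr14:20929148-20929397 on the plus strand.
Itgb6, first start: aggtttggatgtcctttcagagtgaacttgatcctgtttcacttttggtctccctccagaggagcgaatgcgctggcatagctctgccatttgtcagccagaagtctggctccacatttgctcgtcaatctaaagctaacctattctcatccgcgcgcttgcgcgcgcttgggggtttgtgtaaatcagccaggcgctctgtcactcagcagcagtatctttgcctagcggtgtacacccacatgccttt
Itgb6, second start: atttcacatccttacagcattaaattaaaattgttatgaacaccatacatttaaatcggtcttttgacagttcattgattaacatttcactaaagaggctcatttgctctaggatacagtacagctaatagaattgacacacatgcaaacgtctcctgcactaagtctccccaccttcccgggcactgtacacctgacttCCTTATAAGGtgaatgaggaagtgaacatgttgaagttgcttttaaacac
Itga3: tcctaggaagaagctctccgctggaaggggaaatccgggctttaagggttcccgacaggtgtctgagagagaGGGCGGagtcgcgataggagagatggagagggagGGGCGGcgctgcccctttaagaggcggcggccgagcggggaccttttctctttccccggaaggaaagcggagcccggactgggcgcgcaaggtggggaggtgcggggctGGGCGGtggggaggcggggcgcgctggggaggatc
Nedd9: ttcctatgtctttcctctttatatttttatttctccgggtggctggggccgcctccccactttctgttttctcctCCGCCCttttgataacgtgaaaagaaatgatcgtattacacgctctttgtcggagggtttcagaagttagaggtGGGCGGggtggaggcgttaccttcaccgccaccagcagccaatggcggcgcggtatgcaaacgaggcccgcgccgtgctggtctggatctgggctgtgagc
Vcl: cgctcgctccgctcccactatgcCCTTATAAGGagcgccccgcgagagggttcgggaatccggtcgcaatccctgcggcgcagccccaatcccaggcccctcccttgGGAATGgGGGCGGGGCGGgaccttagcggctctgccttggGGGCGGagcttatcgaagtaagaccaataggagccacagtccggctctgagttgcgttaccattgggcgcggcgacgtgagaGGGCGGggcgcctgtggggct
The stretch at the first Itgb6 start held none of the 4 motifs, and the second held a CArG box that begins 50 bases before the start. The Vcl stretch held a CArG box beginning 227 bases before the start, a TEAD motif 143 bases before it, and 4 GC boxes, of which the pair next to the TEAD motif overlap each other. The first Itga3 start held 3 GC boxes, the second Itga3 start 1, and Nedd9 held 2. RefSeq stretches were matched for 30 of the 40 members, with 37 starts in all. A CArG box was found at 3 of these starts (Itgb6, Vcl and Fermt2), or 8.11%, against 1.48% of 32544 starts of all genes. A TEAD motif was found at 10.8% of the members' starts and 12.6% of all starts, an AP-1 motif at 2.70% (1 start, of Zyx) and 6.73%, and a GC box at 51.4% and 33.0%. The 3 genes with a CArG box had log2 ratios of -1.33 (Itgb6), -0.45 (Vcl) and -0.31 (Fermt2). Of all 35 measured members, 20 had log2 ratios below 0, and 3 genes are too few to read against that share. These matches describe letters only, and the factors were not measured at these sites.

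Among the alpha chains, the laminin receptors Itga3 and Itga7 were lower and none was higher. Itga3, on chromosome 11 from 95044474 to 95076801 in build mm10, encodes a chain that pairs with the Itgb1 product to bind laminins of basement membranes. It had 6833 counts (439 CPM) in the Lv_AI662270 library, against 13443 counts (884 CPM) in the Lv_NC library. The level was 2.02-fold lower (1.96 to 2.08) and its log2 ratio of -1.01 lay at the edge of the size rule. Itga3 no longer passed when libraries were scaled in other ways, with log2 ratios of -0.91 by total counts, -0.98 by DESeq2 size factors and -0.94 by upper quartiles.

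Itga7, the laminin receptor chain of muscle, lies on chromosome 10 from 128933818 to 128958282. It had 227 counts (14.6 CPM) in the Lv_AI662270 library, against 528 counts (34.7 CPM) in the Lv_NC library. That is 2.38-fold lower (2.04 to 2.80). Mettl7b overlaps the gene body of Itga7 and had 33 counts in the Lv_AI662270 library and 258 in the Lv_NC library, but shares only 0.111% of Itga7 exon bases. Itga6, the third laminin-binding chain, had 2389 counts in the Lv_AI662270 library and 2206 in the Lv_NC library, a ratio of 1.06 (0.997 to 1.12).

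The alpha chains of receptors that recognise the RGD peptide of fibronectin and vitronectin did not pass the rule. Itga5, the classical fibronectin receptor chain, had 2397 counts (154 CPM) in the Lv_AI662270 library and 1702 counts (112 CPM) in the Lv_NC library, a ratio of 1.37 (1.29 to 1.46). Itgav, which pairs with several beta chains, had 4428 counts in the Lv_AI662270 library and 4695 in the Lv_NC library, a ratio of 0.920 (0.883 to 0.959). Itga8 had 0 counts in both libraries. A count of 0 allows a true level of up to 3 counts, which is 0.193 CPM in the Lv_AI662270 library and 0.197 CPM in the Lv_NC library. The mesangial chain was therefore not detected at this depth in a line labelled mesangial.

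The collagen receptor chains were low. Itga1 had 345 counts in the Lv_AI662270 library and 509 in the Lv_NC library, a ratio of 0.661 (0.575 to 0.760). Itga2, its neighbour on chromosome 13, had 211 counts in the Lv_AI662270 library and 209 in the Lv_NC library, a ratio of 0.985 (0.810 to 1.20). Itga10 had 20 and Itga11 had 1 count in the Lv_AI662270 library, against 11 and 1 in the Lv_NC library, and 33.5% of Itga10 exon bases are shared with the overlapping locus Gm42957. Itga4, a chain of leukocyte receptors, had 0 counts in both libraries, and Itga9, a tenascin receptor chain, had 7 in the Lv_AI662270 library and 2 in the Lv_NC library.

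Because genes differ in length, the makeup of the alpha chains was compared as CPM per kilobase of the deposited gene length. On this scale the 12 chains summed to 157 in the Lv_AI662270 library and 231 in the Lv_NC library. Itga3 supplied 49.0% of the sum in the Lv_AI662270 library and 67.2% in the Lv_NC library. Itga5 supplied 19.9% in the Lv_AI662270 library and 9.84% in the Lv_NC library, and Itgav 16.9% and 12.5% in the same order. The order of the leading chains was Itga3, Itga5, Itgav and Itga6 in the Lv_AI662270 library, and Itga3, Itgav, Itga5 and Itga6 in the Lv_NC library. By known ligand, the laminin-binding chains Itga3, Itga6 and Itga7 held 61.03% of the level in the Lv_AI662270 library and 76.0% in the Lv_NC library, and the RGD-binding chains 36.8% in the Lv_AI662270 library and 22.3% in the Lv_NC library. As a share of raw counts, which carries an exact interval and does not depend on scaling, Itga3 held 40.5% (39.8 to 41.3) of alpha chain counts in the Lv_AI662270 library and 57.7% (57.04 to 58.3) in the Lv_NC library.

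**Figure D2:**
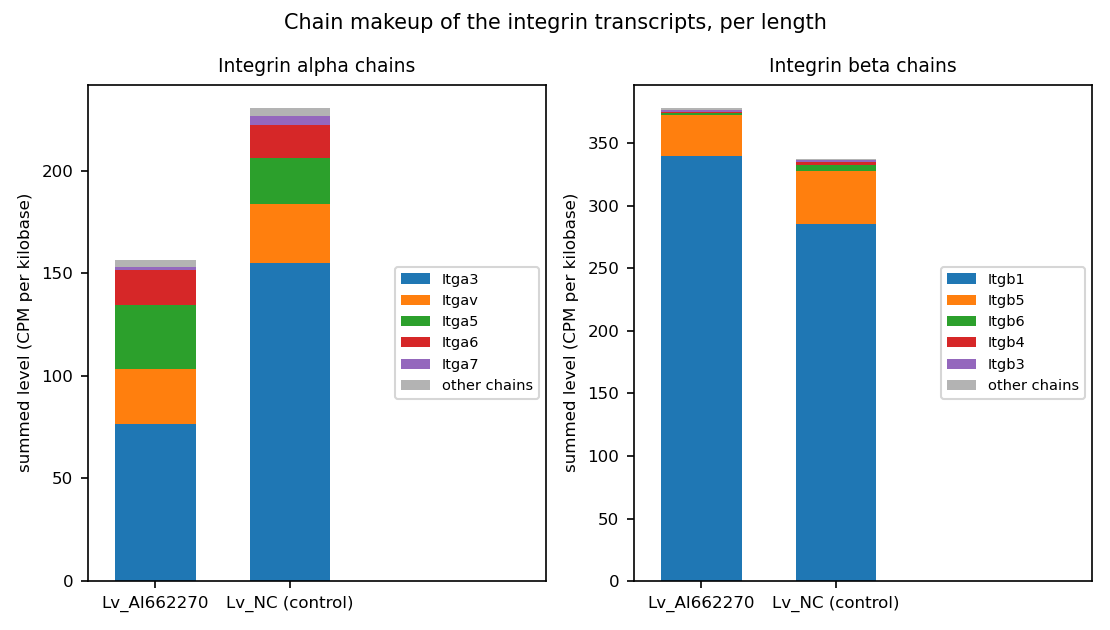
Summed level of the integrin alpha chains (left) and beta chains (right) in CPM per kilobase, with the Lv_AI662270 library left of the Lv_NC library in each panel and the 5 leading chains of a panel in colour, the rest in grey. The Itga3 block is 76.8 in the Lv_AI662270 library and 155 in the Lv_NC library, and Itgb1 fills 90.0% and 84.5% of the beta chain bars in the same order.

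Among the beta chains, Itgb6 was lower and the others did not pass the rule. Itgb6, which pairs with the Itgav product on epithelial cells and can activate latent TGF-beta, lies on chromosome 2 from 60598292 to 60722643. It had 201 counts (12.9 CPM) in the Lv_AI662270 library, against 505 counts (33.2 CPM) in the Lv_NC library. The level was 2.57-fold lower (2.18 to 3.05), the largest ratio in that direction among the measured members. Itgb4, the hemidesmosome chain that pairs with the Itga6 product, had 127 counts in the Lv_AI662270 library and 250 in the Lv_NC library. Its ratio was 0.496 (0.397 to 0.616) and its log2 ratio with the pseudocount was -0.97, just short of the rule. Both chains are typical of epithelia. Of the 6 measured tubular epithelial markers, Krt18 and Cdh1 were lower, where 5.72% of all measured genes were. Krt18 had 5085 counts in the Lv_AI662270 library and 11914 in the Lv_NC library, and Cdh1 had 1030 and 2175 in the same order. The other 4 measured markers of that list had log2 ratios of -0.82 (Epcam), -0.77 (Krt8), 0.06 (Lrp2) and 0.96 (Cubn). Whether the makeup of the cultures had a part in these values was not tested, and in bulk RNA fewer cells of a type and less RNA per cell cannot be told apart.

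Itgb1, the common partner of most alpha chains, was the most abundant member, with 21627 counts (1388 CPM) in the Lv_AI662270 library and 17704 counts (1164 CPM) in the Lv_NC library. Its ratio was 1.19 (1.17 to 1.22), narrow because of its depth and well inside the rule. Per kilobase, Itgb1 stood at 340 CPM in the Lv_AI662270 library and 285 CPM in the Lv_NC library, and exceeded the sum of all alpha chains in both. Itgb5, a vitronectin receptor chain, had 1780 counts in the Lv_AI662270 library and 2310 in the Lv_NC library, a ratio of 0.752 (0.706 to 0.800). Itgb8, which like Itgb6 pairs with Itgav to activate latent TGF-beta, had 58 counts in the Lv_AI662270 library and 27 in the Lv_NC library, a ratio of 2.10 (1.31 to 3.44). Its log2 ratio with the pseudocount was 0.89. Itgb3 and Itgb7 had ratios of 1.03 (0.811 to 1.32) and 1.11 (0.693 to 1.79).

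The partners of Itgav other than Itgb1 are the products of Itgb3, Itgb5, Itgb6 and Itgb8. Itgb5 made up most of their counts in both libraries, 81.6% (79.9 to 83.2) in the Lv_AI662270 library and 77.6% (76.1 to 79.1) in the Lv_NC library. Itgb6 held 9.21% (8.03 to 10.5) in the Lv_AI662270 library and 16.96% (15.6 to 18.4) in the Lv_NC library. Itgb8 held 2.66% (2.02 to 3.42) in the Lv_AI662270 library and 0.907% (0.599 to 1.32) in the Lv_NC library. The share of the epithelial chain was thus smaller, and that of Itgb8 larger, in the Lv_AI662270 library, with intervals that do not meet.

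**Figure D3:**
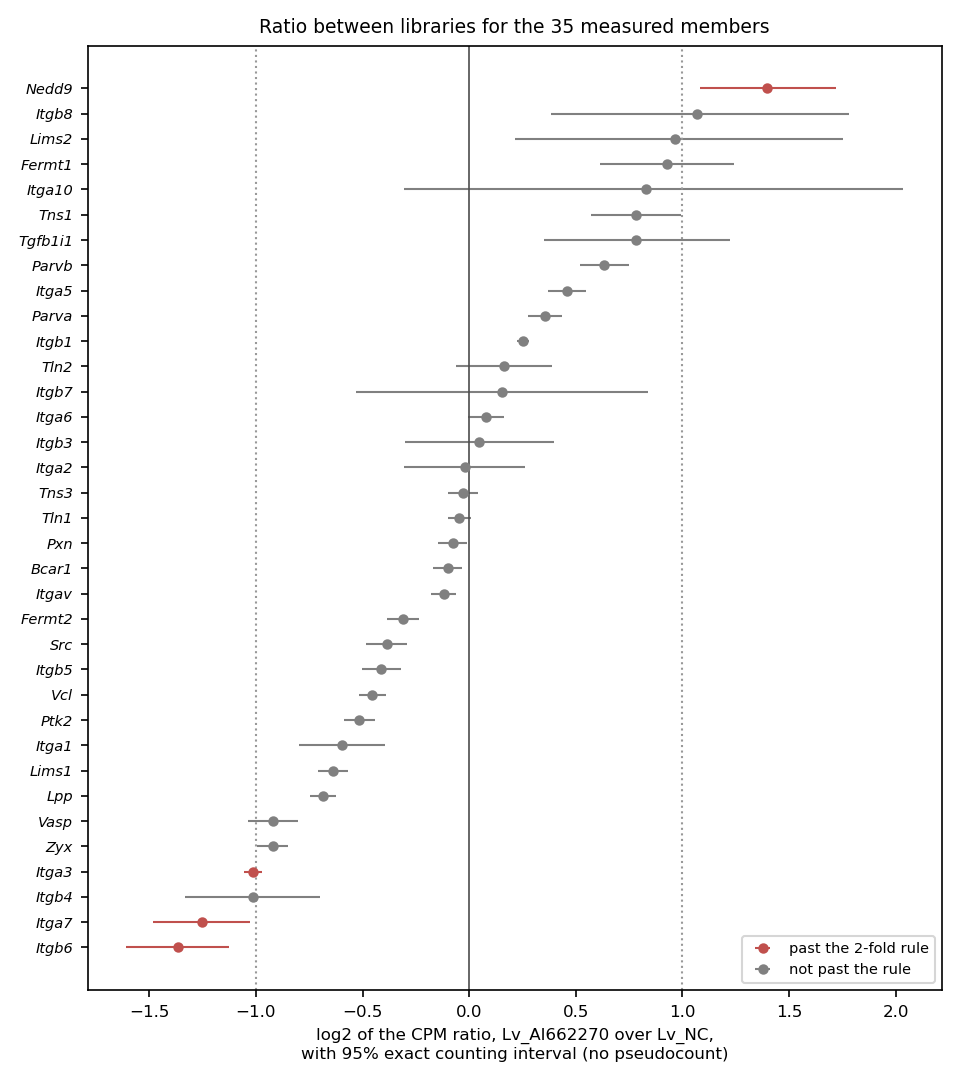
Log2 of the CPM ratio, Lv_AI662270 over Lv_NC, for the 35 measured members, without a pseudocount, with 95% exact counting intervals as bars and dotted lines at -1 and 1. Red points passed the size rule, which uses a pseudocount of 0.5 CPM, so the low genes Itgb8 and Itgb4 reach or cross a dotted line without passing. Nedd9 stands at the top and Itgb6 at the bottom.

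The proteins that switch integrins on and load them with actin had 5 measured members and 0 past the rule, too few genes to read against the background. Tln1, the main talin gene, had 5786 counts in the Lv_AI662270 library and 5829 in the Lv_NC library, a ratio of 0.969 (0.934 to 1.005). Fermt2, the kindlin gene of mesenchymal cells, had 2530 counts in the Lv_AI662270 library and 3059 in the Lv_NC library, a ratio of 0.807 (0.765 to 0.851). Fermt1, the kindlin gene of epithelia, had 255 counts in the Lv_AI662270 library and 131 in the Lv_NC library. Its ratio was 1.90 (1.53 to 2.36) and its log2 ratio 0.89, opposite in sign to the epithelial chains Itgb6 and Itgb4. Vcl, which encodes vinculin, had 3352 counts in the Lv_AI662270 library and 4480 in the Lv_NC library, a ratio of 0.730 (0.698 to 0.764). The annotation shares 25.5% of Vcl exon bases with Ap3m1 on the other strand, which had 1873 counts in the Lv_AI662270 library and 1516 in the Lv_NC library.

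The complex of ILK, PINCH and parvin proteins, which bridges beta chain tails and actin, had 4 measured members and 0 past the rule, likewise too few to read. Lims1, the main PINCH gene, had 2804 counts in the Lv_AI662270 library and 4258 in the Lv_NC library, a ratio of 0.643 (0.612 to 0.674). Both parvin genes among the members had ratios above 1, Parva at 1.28 (1.21 to 1.35) and Parvb at 1.55 (1.43 to 1.68). Parvb had 1581 counts in the Lv_AI662270 library and 994 in the Lv_NC library.

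Ilk, the kinase-like core of this complex, had 8 counts in the Lv_AI662270 library and 7 in the Lv_NC library and was not measured. In the annotation, 89.7% of Ilk exon bases are shared with other genes, 76.7% with Taf10 on the opposite strand. Taf10 had 804 counts in the Lv_AI662270 library and 698 in the Lv_NC library. How reads on shared bases were counted, and whether strand was used, is not stated in the labels. The level of Ilk is therefore uncertain.

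Nedd9 was the only member past the rule among the kinases and Cas scaffolds, and the only higher member of the 35. It encodes a Cas family scaffold of cell migration and lies on chromosome 13 from 41309581 to 41487362. Nedd9 had 305 counts (19.6 CPM) in the Lv_AI662270 library, against 113 counts (7.43 CPM) in the Lv_NC library. The level was 2.63-fold higher (2.12 to 3.30). Bcar1, the founding Cas gene, had 3394 counts in the Lv_AI662270 library and 3549 in the Lv_NC library, a ratio of 0.933 (0.890 to 0.978). Ptk2, the FAK gene, had 2622 counts in the Lv_AI662270 library and 3659 in the Lv_NC library, a ratio of 0.699 (0.665 to 0.735), and Src had a ratio of 0.765 (0.715 to 0.818).

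In the authors' deposited table, 2 members, Itgb6 and Nedd9, had an adjusted p-value under 0.05 among the 38 members it lists, as had 897 of 20667 genes. Its log2 fold changes, Lv_AI662270 over control, were -1.36 for Itgb6 (adjusted p = 0.0408) and 1.396 for Nedd9 (adjusted p = 0.0427) in the authors' deposited table. The same authors' deposited table gives adjusted p-values of 0.0740 for Itga7 and 0.18 for Itga3. These p-values compare single libraries.

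Zyx, Vasp and Lpp, adaptor genes of the actin end of adhesions, had ratios well below 1 without passing the rule. Zyx, which encodes zyxin, a LIM protein of tensed adhesions, had 2318 counts (149 CPM) in the Lv_AI662270 library and 4285 counts (282 CPM) in the Lv_NC library. Its ratio was 0.528 (0.502 to 0.555) and its log2 ratio -0.92. Vasp, whose product promotes actin filament growth and binds zyxin, had 908 counts in the Lv_AI662270 library and 1675 in the Lv_NC library, a ratio of 0.529 (0.487 to 0.574). Lpp, a relative of zyxin, had 3442 counts in the Lv_AI662270 library and 5404 in the Lv_NC library, a ratio of 0.621 (0.595 to 0.649). All 3 genes had lower counts in the Lv_AI662270 library, by less than 2-fold and with counting intervals that left out 1. The interval left out 1, in either direction, for 27 of the 35 measured members. The same share over all measured genes was not counted, so this number cannot be read as particular to the members.

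Other adaptors had ratios near or above 1. Pxn, the paxillin gene, had a ratio of 0.948 (0.904 to 0.994) and Tns3, the more abundant tensin gene, 0.980 (0.933 to 1.03). Tns1 had 509 counts in the Lv_AI662270 library and 289 in the Lv_NC library, a ratio of 1.72 (1.48 to 1.99). Tgfb1i1, which encodes the paxillin relative Hic-5, had 125 counts in the Lv_AI662270 library and 71 in the Lv_NC library, a ratio of 1.72 (1.27 to 2.33).

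Several of these genes come in related pairs with shared functions, and a share of counts within a pair does not depend on how libraries are scaled. All 8 such pairs among the intracellular members were compared. The share of the less counted gene was larger in the Lv_AI662270 library in 6 pairs, smaller in 1 and had overlapping intervals in 1. Pairs of other genes were not compared, so these counts cannot be read as particular to the 8 pairs. Over all measured genes, too, the median log2 ratio was larger under 50 CPM (0.05) than at 50 CPM or more (-0.09). Nedd9 held 8.25% (7.38 to 9.18) of Nedd9 and Bcar1 counts in the Lv_AI662270 library and 3.09% (2.55 to 3.70) in the Lv_NC library. Fermt1 held 9.16% (8.11 to 10.3) of the Fermt1 and Fermt2 counts in the Lv_AI662270 library and 4.11% (3.44 to 4.85) in the Lv_NC library. Tns1 held 13.4% (12.3 to 14.5) of the Tns1 and Tns3 counts in the Lv_AI662270 library and 8.09% (7.22 to 9.03) in the Lv_NC library.

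Of the other pairs, Tgfb1i1 held 3.59% (2.99 to 4.26) of its counts with Pxn in the Lv_AI662270 library and 2.01% (1.57 to 2.53) in the Lv_NC library. Lims2 held 1.61% (1.18 to 2.15) of PINCH counts in the Lv_AI662270 library and 0.537% (0.341 to 0.805) in the Lv_NC library, from 46 and 23 counts. Parvb held 35.6% (34.2 to 37.05) of the Parva and Parvb counts in the Lv_AI662270 library and 31.3% (29.7 to 32.98) in the Lv_NC library. The exception was Zyx, which held 40.2% (38.97 to 41.5) of its counts with Lpp in the Lv_AI662270 library and 44.2% (43.2 to 45.2) in the Lv_NC library. For Tln2 the intervals overlapped, at 5.83% (5.25 to 6.44) in the Lv_AI662270 library and 5.08% (4.54 to 5.66) in the Lv_NC library.

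**Figure D4:**
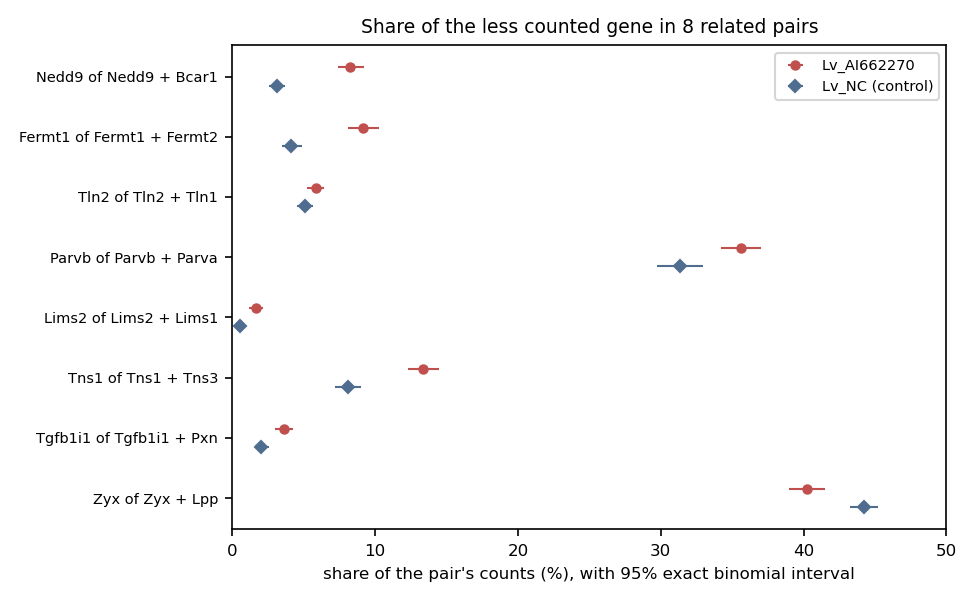
Share of the less counted gene in the summed counts of 8 related pairs, in percent, with 95% exact binomial intervals. Circles are the Lv_AI662270 library and diamonds the Lv_NC library. The share of Nedd9 is 8.25% in the Lv_AI662270 library and 3.09% in the Lv_NC library, and Zyx is the pair with the opposite order.

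Other proteins of focal adhesions were read from a list of 57 genes, of which 50 were measured. One was higher and 2 were lower, beside 5.59% and 5.72% of all measured genes, and the median log2 ratio was -0.23. The higher gene was Kank2, which encodes a talin-binding protein, with 1222 counts in the Lv_AI662270 library and 589 in the Lv_NC library, 2.02-fold higher (1.83 to 2.24). The lower genes were Sorbs2, an actin and vinculin adaptor gene, 2.13-fold lower (1.80 to 2.52), and Fhl2, a LIM protein gene, 2.05-fold lower (1.85 to 2.28). The log2 ratios of Kank2, Sorbs2 and Fhl2 were 1.01, -1.06 and -1.02, near the edge of the rule. Whether they pass with other scalings is not given here. Fhl2 had 537 counts in the Lv_AI662270 library and 1074 in the Lv_NC library. Of 9 integrin chains outside the members, mostly of leukocytes, 3 were measured, too few to read against those shares of all genes. Itgae was higher with 42 counts in the Lv_AI662270 library and 15 in the Lv_NC library, and Itgam and Itgax had 0 in both.

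Ligands of integrins, mostly matrix proteins, were also read. Of 49 listed ligands 34 were measured, with 5 higher and 5 lower, beside 5.59% and 5.72% of all measured genes, and a median log2 ratio of 0.04. The 6 with the most extreme ratios are given. Col6a1 and Col6a2, chains of collagen VI, and Vcam1, a ligand of receptors with the Itga4 chain, were higher, with log2 ratios of 2.72, 2.74 and 2.56. Thbs1, Col4a3 and Cyr61 were lower, at -2.93, -2.60 and -2.48. Col4a3, a collagen IV chain of the glomerular basement membrane, had 7 counts in the Lv_AI662270 library and 80 in the Lv_NC library. Lama5, which encodes a chain of the laminins that the Itga3 receptor binds, had 11165 counts in the Lv_AI662270 library and 20333 in the Lv_NC library, without passing the rule. Of the other measured laminin alpha chain genes, Lama1 was higher, with 65 counts in the Lv_AI662270 library and 17 in the Lv_NC library. Lama3 had a ratio of 1.12 (0.964 to 1.30), and its interval holds 1. Of 17 syndecans, tetraspanins and other integrin partners, 2 passed the rule as higher and 2 as lower, beside the same 5.59% and 5.72%, and the median log2 ratio was -0.05. Sdc3 and Sdc2, both syndecan genes, were 6.20-fold (4.52 to 8.69) and 2.55-fold (2.08 to 3.15) higher. Plaur, the urokinase receptor gene, and Slc3a2, which encodes the heavy chain of CD98 and binds beta chain tails, were 3.55-fold (3.20 to 3.94) and 2.83-fold (2.72 to 2.96) lower.

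**Figure D5:**
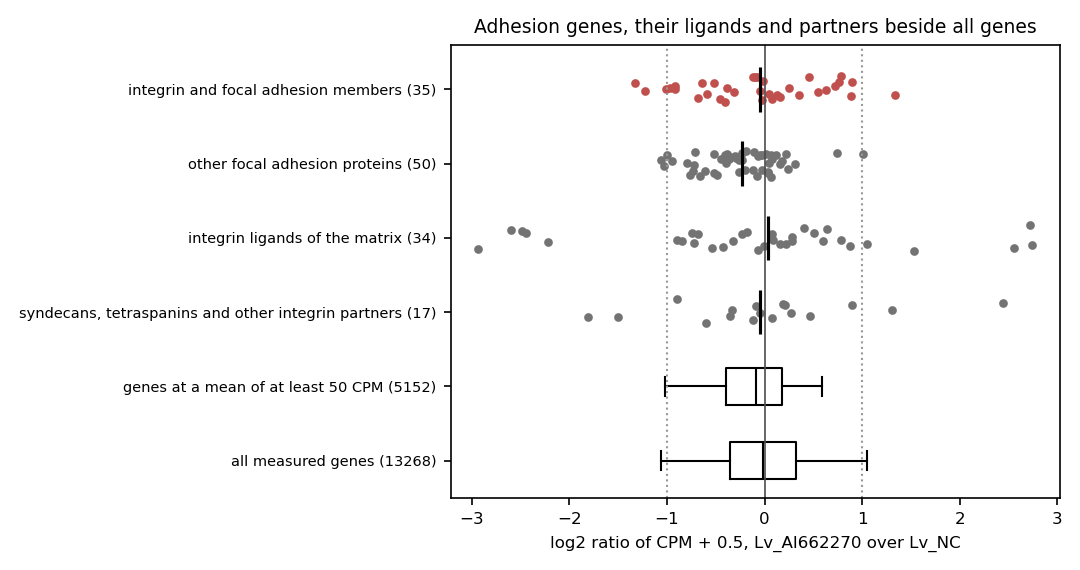
Log2 ratio of CPM + 0.5, Lv_AI662270 over Lv_NC, for the measured members (red), 3 lists of other adhesion genes (grey) and 2 sets of all genes. Points are genes and vertical bars medians for the lists, and boxes give quartiles with whiskers at the 5th and 95th percentiles. The members lie between -1.33 and 1.34, while the integrin ligands, mostly matrix proteins, reach -2.93 and 2.74.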

How the data were processed

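RNA of the Lv_AI662270 and Lv_NC lines was measured with 1 library per group. Per the submitters' processing notes, CASAVA 1.4 and TopHat2 were used with build mm10. Neither the counting tool nor its annotation or strand option is stated. The deposited count columns hold whole reads per gene, not normalized, judged from the values. The deposited FPKM columns equal counts over gene length and a shared divisor of 15391166, and served only as an alternative. The deposited signal columns appear from the values to be counts divided by a size factor, and entered no result. The log2 fold changes and p-values in the authors' deposited table are the authors' own.

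Counts were scaled by TMM in edgeR 4.0.16 (R 4.3.3), with factors of 1.03 for the Lv_AI662270 and 0.967 for the Lv_NC library. Ratios and exact Clopper-Pearson intervals of the share of 2 counts were computed with scipy 1.17.1, numpy 2.4.6 and pandas 2.3.3 under Python 3.11.15. Intervals and the floor of 3 counts cover counting error only, as no molecular identifiers are named. The size rule is given in the results. It was also run on simulated counts with counting error only, which cannot show how it fares with differences between cultures. Exon overlap came from GENCODE M21 of the same build. Every member past the rule is named with its values, with the most abundant members of each role. In each other list up to 6 genes past the rule are named. Lama5, Fermt1, Itgb8 and other genes short of the rule were chosen after their values were seen. Lama1 and Lama3 were added beside Lama5. The members, lists and pairs were chosen with earlier results of these data known.

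Alternatives were scaling by total counts, DESeq2 1.42.0 size factors or upper quartiles, pseudocounts of 0.1 and 2 CPM, thresholds of 1.5-fold and 3-fold, a filter at 5 CPM or none at all, and FPKM with a pseudocount of 0.5.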

Additional observations from a re-analysis of the deposited data

How the results depend on the processing

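The single higher and 3 lower members were the main counts. With a pseudocount of 0.1 CPM there were 2 higher members, Itgb8 joining Nedd9, and 867 higher genes among all 13268 measured. With the 1.5-fold threshold there were 7 higher members (12.9% of all measured genes were higher) and 9 lower (14.3%), and with the 3-fold threshold 0 higher (1.86%) and 0 lower (1.97%). These shifts follow from the thresholds themselves. Nedd9, Itgb6 and Itga7 passed in the same direction under all alternatives except the 3-fold threshold. Itga3 did not pass with the 3 other scalings or on FPKM, where its log2 ratio was -0.97, which left 2 lower members. Among all measured genes, 615 of 13264 were lower by total counts and 707 of 13273 by DESeq2 size factors. By upper quartiles 655 of 13271 were lower, and on FPKM 556 of 13268. Itgb4 passed at -1.004 with a pseudocount of 0.1 CPM, which made 4 lower members, beside 857 lower genes of all 13268 measured. The members' median log2 ratio lay between -0.10 and 0.05 over the alternatives. No member past the rule changed sign, while Itga2, Tns3, Tln1 and Pxn, all within 0.08 of 0, did so under other scalings. No paired analysis was possible because each group held 1 library, and no library could be left out. Members under about 5 CPM, such as Itgb8 and Lims2, rest on few counts.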
